A study of Sus scrofa with 9 samples.

Results

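The insulin-like growth factor (IGF) genes described here are 10 rows of the gene count table, taken by symbol: the ligands IGF1 and IGF2, the receptors IGF1R and IGF2R, and the binding proteins IGFBP2 to IGFBP7. They are 10 of 27339 genes in the table and of 15956 genes with enough counts to be tested, and all 10 passed that filter. The libraries came from primary Gottingen pig cells labelled as myoblasts, the proliferating precursors of skeletal muscle, at passages 7 to 9. The transgene, inducible by doxycycline in each case, was human DUX4 in 3 libraries, pig DUXC in 3 and GFP, the control, in 3. All 9 libraries, controls included, were exposed to doxycycline at 1 µg/mL for 16 h before harvest. DUX4 is a double homeobox factor of the early human embryo, and its expression in muscle underlies facioscapulohumeral muscular dystrophy. DUXC is a related gene of the pig. Neither the number of animals nor the use of separate cultures is stated in the labels. The p-values therefore speak only of the spread among the 9 libraries, which may be technical.

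IGF1 and IGF2 are secreted peptides that promote growth, survival and differentiation of muscle cells. Both act through IGF1R, a tyrosine kinase that signals through insulin receptor substrates, PI3 kinase and AKT. IGF2R has no kinase: it takes IGF2 to the lysosome and sorts enzymes that carry mannose 6-phosphate. The binding proteins hold IGFs outside the cell, prolonging their life or keeping them from the receptor, and proteases such as PAPPA release the ligand again.

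Total counts ranged from 36580573 to 44420895 per library. Levels are read counts relative to library size, scaled by TMM factors and written as CPM, with mean ± SD of n = 3 libraries. They depend on transcript length and were not compared between genes, since exon lengths were not used here. Differences are log2 fold changes ± SE from edgeR's quasi-likelihood test, two-sided, with Benjamini-Hochberg adjustment over all tested genes and a threshold of 0.05. Of 12 myogenic markers, 5 reached 1 CPM with GFP, and the myogenic factors MYOD1 and MYOG stood at 0.00856 and 0.0498 CPM. All 10 fibroblast and matrix markers were above 1 CPM in every group. In these bulk samples fewer cells of a type and less RNA per cell cannot be told apart.

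With DUX4, 6 of the 10 IGF genes were lower than with GFP and 1 was higher, at a background of 31.9% of all tested genes lower, 32.9% higher and 64.8% changed in either direction. With DUXC, 7 were lower and 1 was higher, where 42.3% of all genes were lower, 40.2% higher and 82.5% changed. The shares of IGF genes called at all, 7 and 8 of 10, were near these backgrounds. The median log2 fold change of the 10 genes was -0.46 with DUX4 and -0.93 with DUXC, against 0.00 and -0.03 over all tested genes. Both comparisons use the same GFP libraries. Between the transgenes, 4 IGF genes were higher and 5 lower with DUX4 than with DUXC, where 40.8% of all genes were higher, 41.6% lower and 82.4% changed. IGFBP4 was the gene not called there.

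**Figure D1:**
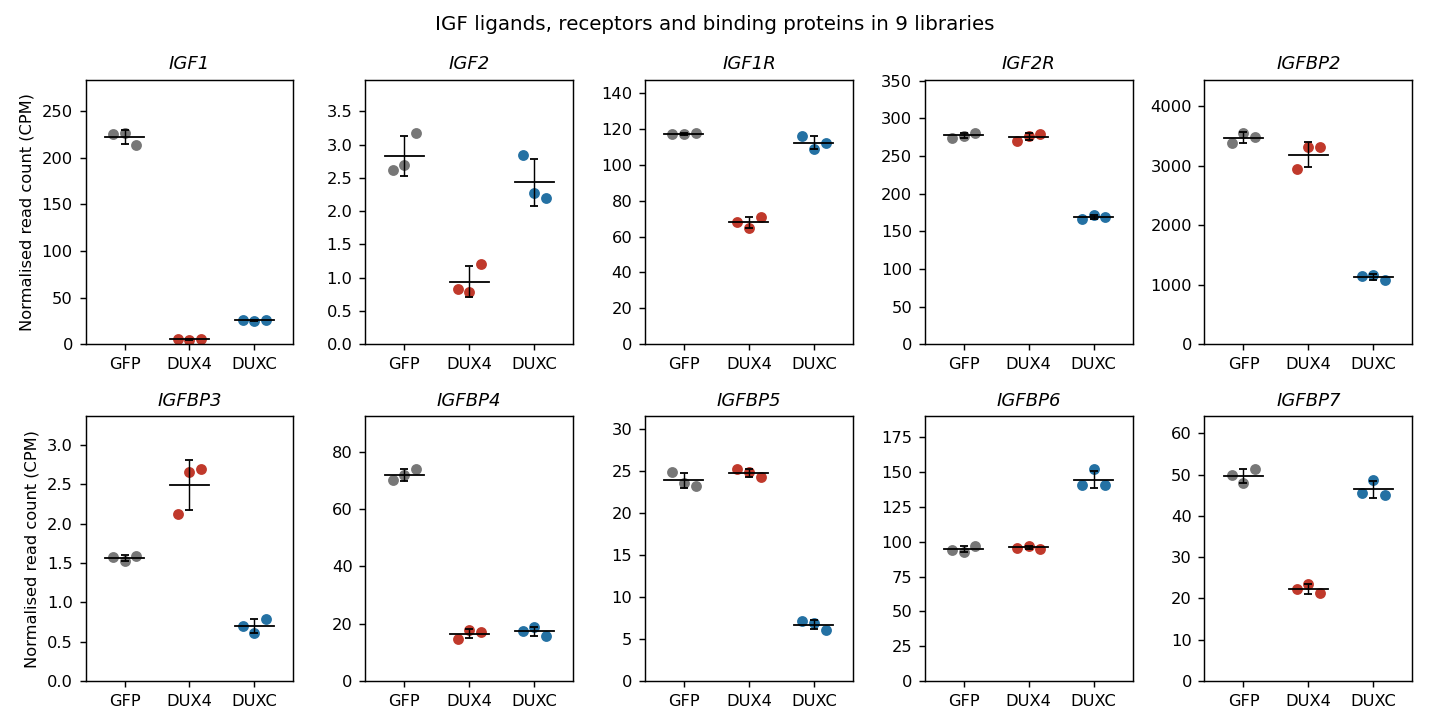
Normalised read counts (CPM, linear axis from 0, a separate scale for each gene) of the 10 IGF genes in each of 9 libraries, with points for libraries, horizontal lines for group means and error bars for the SD of 3 libraries. IGF1 and IGFBP4 were low with both transgenes, IGF2, IGF1R and IGFBP7 were lowest with DUX4, and IGF2R, IGFBP2, IGFBP3 and IGFBP5 were lowest with DUXC.

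Among the ligands, IGF1 (chromosome 5, 81762027 to 81909253, Sscrofa11.1) fell steeply with both transgenes. The GFP libraries held 226, 227 and 214 CPM, the DUX4 libraries 5.31, 4.31 and 5.97 CPM, and the DUXC libraries 26.1, 25.1 and 25.5 CPM. All 3 groups were apart from each other without overlap, in the order GFP, DUXC, DUX4. The DUX4 mean was 2.34% of the GFP mean (log2 fold change -5.42 ± 0.067, adjusted p = 9.66e-44 in edgeR), and 7 of the 15956 tested genes had a more negative fold change. The DUXC mean was 11.5% of the GFP mean (-3.12 ± 0.044, adjusted p = 1.23e-39), with 12 genes more negative. IGF1 was 4.94-fold lower with DUX4 than with DUXC (log2 -2.30 ± 0.071, adjusted p = 3.93e-29). The gene spans a pair of long noncoding loci, LOC110260785 and LOC110260784, which held 59 and 8 counts over all 9 libraries.

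IGF2, the ligand most used in fetal growth (chromosome 2, 1469183 to 1496417), had few counts and fell with DUX4. It stood at 2.62, 2.70 and 3.18 CPM with GFP, at 0.836, 0.780 and 1.21 CPM with DUX4 and at 2.84, 2.28 and 2.19 CPM with DUXC. The DUX4 libraries lay below all others, while the DUXC and GFP libraries overlapped. The value with DUX4 was 33.2% of the GFP mean (-1.60 ± 0.183, adjusted p = 3.65e-11). With DUXC the log2 fold change was -0.22, with a 95% interval of -0.51 to 0.08, and did not pass (adjusted p = 0.165). The difference between the transgenes passed at log2 -1.38 ± 0.186 (adjusted p = 1.90e-09). These values rest on 34 to 124 counts per library, so the spread between libraries was wide, at 24.5% of the mean with DUX4.

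Each receptor fell with a different transgene. IGF1R (chromosome 1, 137383623 to 137691038), the signalling receptor, was at 117, 117 and 118 CPM with GFP, at 68.2, 64.8 and 70.8 CPM with DUX4 and at 116, 109 and 112 CPM with DUXC. The DUX4 libraries stood far below both other groups, and the DUXC libraries lay just under the GFP libraries without overlapping them. With DUX4 it fell to 57.7% of the GFP mean (-0.79 ± 0.035, adjusted p = 4.65e-25). With DUXC the log2 fold change was -0.07, with a 95% interval from -0.14 to just under 0, and missed the threshold (adjusted p = 0.0599, and 0.00197 to 0.842 over the alternatives). The value turned to 0.01 with DESeq2's size factors and to 0.06 with library size alone. The direct difference between the transgenes was -0.73 ± 0.035 (adjusted p = 6.50e-24). IGF1R overlaps PGPEP1L at its edge, which held 96 counts over the 9 libraries.

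IGF2R, the clearance and sorting receptor (chromosome 1, 7369485 to 7472480), showed the opposite order. It had 274, 277 and 281 CPM with GFP, 270, 277 and 279 CPM with DUX4 and 166, 171 and 169 CPM with DUXC. The GFP and DUX4 libraries overlapped and the DUXC libraries lay below them all. With DUXC it fell to 60.9% of the GFP mean (-0.71 ± 0.030, adjusted p = 2.10e-26). The log2 fold change with DUX4 was -0.01, with a 95% interval of -0.07 to 0.05 (adjusted p = 0.814). DUX4 exceeded DUXC by log2 0.71 ± 0.030 (adjusted p = 3.05e-26).

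**Figure D2:**
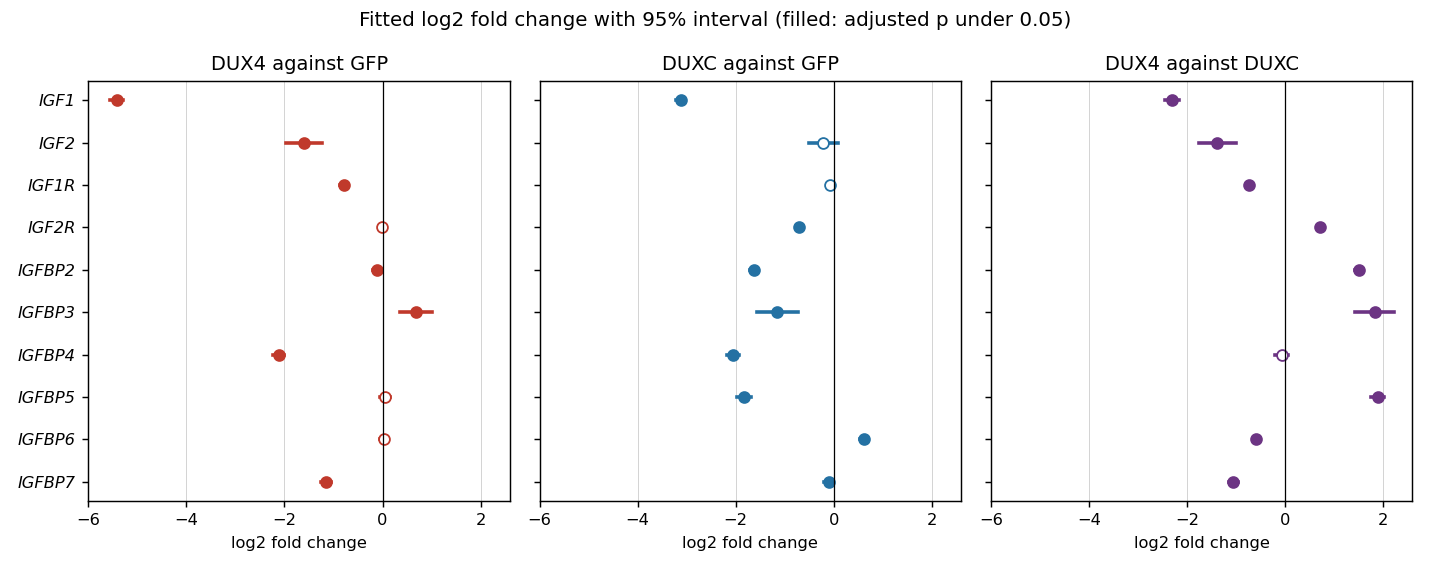
Fitted log2 fold changes (horizontal axes) of the 10 IGF genes for each transgene against GFP and for DUX4 against DUXC, with 95% intervals as lines and filled points for an adjusted p under 0.05. IGF1 lies at -5.42 and -3.12 against GFP, IGFBP4 at -2.12 and -2.06, and IGFBP3, IGFBP5, IGFBP2 and IGF2R lie to the right of 0 between the transgenes.

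The binding proteins differed in their patterns. IGFBP4, a binding protein regarded mainly as an inhibitor of IGF action and a substrate of PAPPA (chromosome 12, 21966524 to 21980043), was far lower with both factors than with GFP. It had 70.0, 71.9 and 73.9 CPM with GFP, 14.6, 17.7 and 17.1 CPM with DUX4 and 17.5, 18.7 and 15.6 CPM with DUXC. Both transgene groups lay far below the controls and overlapped each other. The means were 22.9% and 24.0% of the GFP mean (-2.12 ± 0.057, adjusted p = 6.15e-28, and -2.06 ± 0.056, adjusted p = 5.68e-28). The difference between the transgenes was -0.07 with a 95% interval of -0.20 to 0.07, and did not pass (adjusted p = 0.345). It reached -0.17 with library size alone (adjusted p = 0.0150) and 0.02 without DUX4 replicate 1 (adjusted p = 0.713).

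IGFBP2, IGFBP5 and IGFBP3 fell with DUXC, IGFBP2 slightly with DUX4 too. IGFBP2 (chromosome 15, 118822092 to 118850985) had 3380, 3560 and 3480 CPM with GFP, 2940, 3310 and 3320 CPM with DUX4 and 1150, 1160 and 1080 CPM with DUXC. The DUX4 libraries lay a little under the controls without overlap, DUX4 replicate 1 being the lowest, and the DUXC libraries were at 32.5% of the GFP mean. The fall was -1.62 ± 0.038 with DUXC (adjusted p = 1.30e-24) and -0.12 ± 0.037 with DUX4 (adjusted p = 0.00531, and 5.20e-05 to 0.0390 over the alternatives). Without DUX4 replicate 1 the latter was -0.07 (adjusted p = 0.0390). The transgenes differed by log2 1.50 ± 0.038 (adjusted p = 7.75e-24).

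IGFBP5, which is made by myoblasts and modulates their differentiation (chromosome 15, 118861816 to 118877787), had 24.9, 23.6 and 23.2 CPM with GFP, 25.2, 24.9 and 24.3 CPM with DUX4 and 7.10, 6.91 and 6.12 CPM with DUXC. Controls and DUX4 libraries overlapped, and the DUXC libraries were all lower. With DUXC it fell to 28.1% of the GFP mean (-1.83 ± 0.068, adjusted p = 2.43e-29). With DUX4 the log2 fold change was 0.05, with a 95% interval of -0.05 to 0.16 (adjusted p = 0.385). Between the transgenes it was 1.89 ± 0.068 (adjusted p = 4.71e-30).

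IGFBP3, the main carrier of IGFs in serum (chromosome 18, 50002921 to 50009425), moved in opposite directions. It had few counts, with 1.57, 1.52 and 1.59 CPM with GFP, 2.12, 2.66 and 2.69 CPM with DUX4 and 0.697, 0.612 and 0.790 CPM with DUXC. The 3 groups did not overlap. It rose to 160% of the GFP mean with DUX4 (0.68 ± 0.159, adjusted p = 0.000204) and fell to 44.9% with DUXC (-1.15 ± 0.209, adjusted p = 1.48e-06). The transgenes differed by 1.83 ± 0.198 (adjusted p = 1.54e-12), on 25 to 116 counts per library.

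IGFBP6 and IGFBP7 made up the rest. IGFBP6, which prefers IGF2 over IGF1 (chromosome 5, 18352884 to 18357225), was at 93.7, 92.9 and 97.0 CPM with GFP, 95.7, 97.2 and 94.7 CPM with DUX4 and 141, 152 and 141 CPM with DUXC. The DUXC libraries stood above all others, and the other groups overlapped. It was the IGF gene that rose with DUXC, to 153% of the GFP mean (0.61 ± 0.034, adjusted p = 1.33e-21). With DUX4 the log2 fold change was 0.02, with a 95% interval of -0.05 to 0.09 (adjusted p = 0.622), and between the transgenes -0.59 ± 0.034 (adjusted p = 4.20e-21).

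IGFBP7, a relative with weak IGF binding (chromosome 8, 56283089 to 56357822), had 49.9, 48.0 and 51.3 CPM with GFP, 22.3, 23.6 and 21.2 CPM with DUX4 and 45.5, 48.8 and 45.0 CPM with DUXC. The DUX4 libraries were lower than all others, and DUXC and GFP libraries overlapped. With DUX4 it fell to 45.0% of the GFP mean (-1.15 ± 0.047, adjusted p = 1.65e-26), and the difference between the transgenes was -1.05 ± 0.048 (adjusted p = 2.52e-25). The call with DUXC, at log2 -0.10 ± 0.044 (adjusted p = 0.0363, and 0.00178 to 0.724 over the alternatives), rested on the settings. It did not pass with a filter of 1 CPM in 3 libraries, a fit on the 2 groups alone, DESeq2, or edgeR with DESeq2's size factors. It was also lost without DUXC replicate 1 or 3 or GFP replicate 1 or 3, at adjusted p = 0.106, 0.149, 0.0582 and 0.106, and its sign turned with library size alone, at 0.03. The gene overlaps the edge of POLR2B, which held 6132 to 8122 counts per library.

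Summed without regard to length, the 6 binding proteins held 3710 ± 92.0 CPM with GFP, 3350 ± 216 CPM with DUX4 and 1350 ± 49.2 CPM with DUXC. Leaving out IGFBP2, the other 5 held 242 ± 4.70, 162 ± 3.53 and 215 ± 9.80 CPM. The group with the fewest binding protein reads was thus DUXC with IGFBP2 counted and DUX4 without it. IGFBP1 had no count in any library, where 3 counts over a group would give 0.0243 to 0.0253 CPM (counting error only).

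The lists around the IGF genes are given beside the shares of all tested genes called, 64.8% with DUX4 and 82.5% with DUXC. Of the binding protein proteases and their inhibitors, 10 of 11 were tested, with 5 higher and 4 lower with DUX4 (32.9% and 31.9% of all genes) and 3 higher and 6 lower with DUXC (40.2% and 42.3%). With DUXC the 9 of 10 called were near the background of 82.5%. The median log2 fold change was 0.56 and -1.07, against 0.00 and -0.03 over all genes. PAPPA, the metalloprotease that cleaves IGFBP4, was at 416, 425 and 422 CPM with GFP, 271, 252 and 275 CPM with DUX4 and 124, 121 and 132 CPM with DUXC. It fell by 0.66 and by 1.75 on the log2 scale (adjusted p = 9.53e-23 and 2.43e-39 in edgeR), and the 3 groups did not overlap. The stanniocalcin STC2, an inhibitor of PAPPA, moved in opposite directions, from 38.6, 38.9 and 39.9 CPM with GFP to 87.7, 89.1 and 87.5 CPM with DUX4 and 12.2, 12.3 and 13.5 CPM with DUXC (log2 1.17 and -1.63). STC1, its relative, rose with both, from 2.47 ± 0.389 CPM to 18.3 ± 2.12 and 5.49 ± 0.308 CPM (log2 2.88 and 1.15). The serine protease HTRA1 fell with both, from 836 ± 14.5 to 410 ± 17.3 and 414 ± 1.58 CPM. PAPPA2 had no count with GFP and 13 and 42 counts with DUX4 and DUXC. Against a floor of 3 counts over the group it was at least 4.22-fold higher with DUX4 and at least 14.0-fold higher with DUXC. It reached the filter on low counts only in the DUXC libraries, so its rise there was favoured by that choice. With it at these bounds the list medians were 0.56 and -1.07 again, as they had to be, since it stayed above them.

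**Figure D3:**
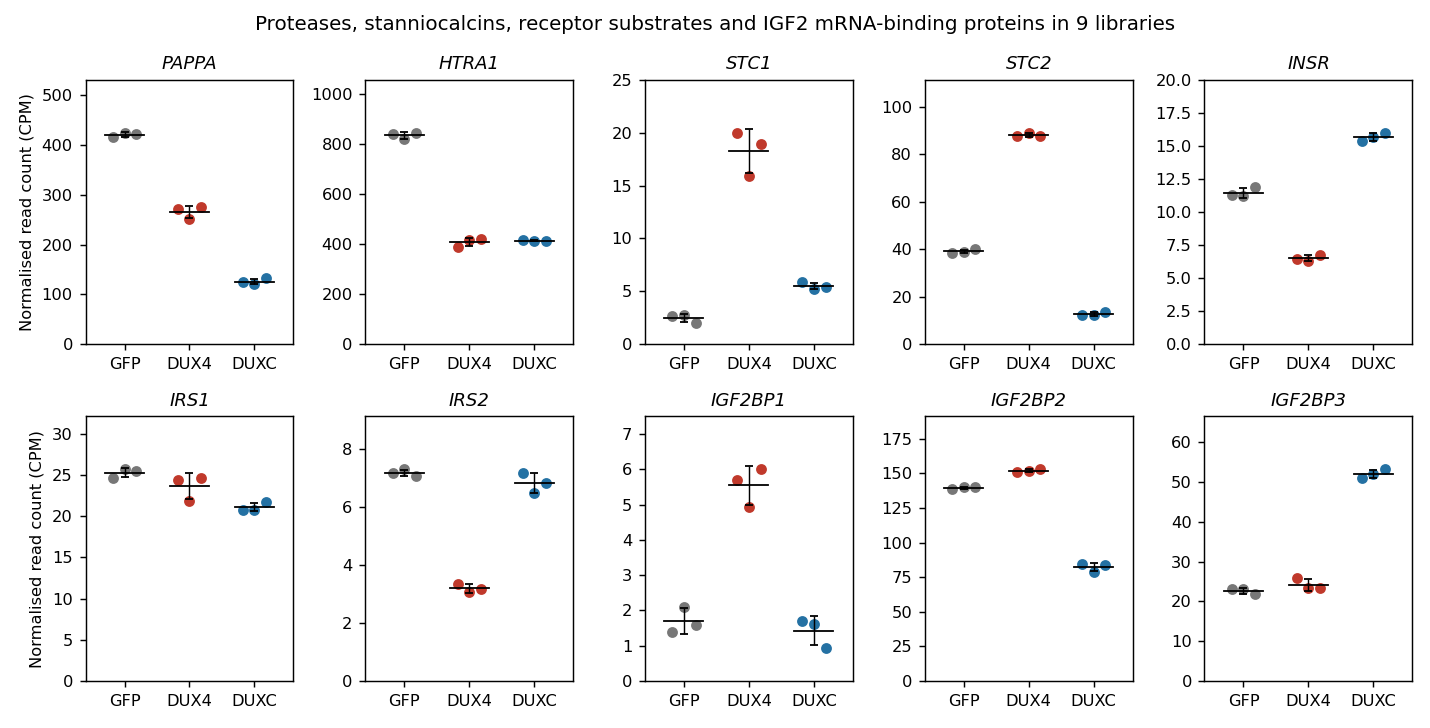
Normalised read counts (CPM, linear axis from 0, a separate scale for each gene) of 10 genes around the IGF system in each of 9 libraries, with lines for group means and error bars for the SD of 3 libraries. PAPPA was lower with DUX4 and lowest with DUXC, STC2 was highest with DUX4 and lowest with DUXC, and IGF2BP1 was high with DUX4 and IGF2BP3 with DUXC.

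Genes related to the binding proteins, 8 tested of 11 in the table, were lower in 5 and higher in 2 with DUX4, where 31.9% of all genes were lower and 32.9% higher. With DUXC 4 were lower and 2 higher, so 6 of 8 were called against 82.5% of all genes. CTGF, a matricellular protein with an IGF-binding module, fell from 469 ± 17.2 to 303 ± 2.81 CPM with DUX4 and rose to 3140 ± 50.1 CPM with DUXC (log2 -0.63 and 2.75). CYR61 of the same family fell with both (log2 -0.69 and -0.48). WISP2 fell from 13.6 ± 1.19 to 2.16 ± 0.405 and 6.22 ± 0.761 CPM, while WISP1 rose with DUX4 and fell with DUXC (log2 0.55 and -2.25). IGFALS, the serum partner of IGFBP3, stood at 0.380, 0.415 and 0.342 CPM with GFP, DUX4 and DUXC and did not pass in any comparison.

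Of 34 tested receptor signalling genes, 10 rose and 14 fell with DUX4, and 15 rose and 14 fell with DUXC, with medians of -0.07 and -0.01. The 24 and 29 called were near the backgrounds of 64.8% and 82.5%. INSR, the insulin receptor, was at 11.3, 11.2 and 11.9 CPM with GFP, 6.47, 6.31 and 6.74 CPM with DUX4 and 15.4, 15.7 and 16.0 CPM with DUXC, so the groups did not overlap (log2 -0.82 and 0.46, adjusted p = 1.46e-13 and 2.43e-08 in edgeR). The receptor substrate IRS2 fell with DUX4 from 7.17 ± 0.119 to 3.19 ± 0.147 CPM (log2 -1.17) and was at 6.82 ± 0.332 CPM with DUXC (adjusted p = 0.436). IRS1 went from 25.3 ± 0.547 CPM to 21.1 ± 0.529 CPM with DUXC (log2 -0.26, adjusted p = 2.29e-05). With DUX4 it was at 23.6 ± 1.61 CPM (adjusted p = 0.0951), and the difference passed without DUX4 replicate 3 (adjusted p = 0.0466).

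Other genes of the same list rose with DUXC. The PI3 kinase subunit PIK3R1 went from 22.3 ± 0.459 to 62.9 ± 0.717 CPM, RICTOR of the second mTOR complex from 44.8 ± 0.980 to 127 ± 6.93 CPM, and the phosphatase PTPN1 from 41.8 ± 0.428 to 87.5 ± 2.74 CPM. GRB14, an adaptor that inhibits the insulin receptor, rose from 0.176 ± 0.0382 to 8.08 ± 0.442 CPM (log2 5.49). GRB14 too was tested only because its DUXC libraries passed the filter on low counts, which favoured a rise there. The translation inhibitor EIF4EBP1 fell with DUXC and rose with DUX4 (log2 -1.23 and 0.52).

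Of 15 genes known to respond to FOXO factors, which AKT keeps out of the nucleus, 7 rose and 8 fell with DUX4, and 7 rose and 5 fell with DUXC. All 15 were thus called with DUX4, where 64.8% of all genes were, and 12 with DUXC, near the background of 82.5%. Their medians were -0.15 and 0.06. TXNIP fell with both (log2 -1.34 and -0.79) and CITED2 rose with both (1.06 and 2.87). BNIP3 rose with DUX4 and fell with DUXC (1.63 and -0.89), and CCNG2 rose with both (0.19 and 2.23). PDK4, an inhibitor of pyruvate oxidation, rose from 0.681 ± 0.0849 to 1.71 ± 0.439 and 31.7 ± 1.08 CPM.

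In the growth hormone axis, which drives IGF1 in liver and muscle, 4 of 9 genes rose and 5 fell with DUX4, and 6 rose and 1 fell with DUXC. That made 9 of 9 called with DUX4 against 64.8% of all genes, and 7 of 9 with DUXC, near 82.5%. The medians were -0.50 and 0.84. The feedback inhibitors SOCS1, SOCS2 and SOCS3 rose with both transgenes, SOCS2 from 3.65 ± 0.259 to 9.23 ± 0.870 and 9.42 ± 0.119 CPM. CISH, a feedback inhibitor of the same family named after its values were seen, fell with DUX4 from 1.07 ± 0.115 to 0.505 ± 0.0538 CPM (log2 -1.08, adjusted p = 7.62e-05 in edgeR) and rose with DUXC to 3.89 ± 0.528 CPM (log2 1.86). STAT5A, a factor that acts below the growth hormone receptor, fell with DUX4 from 28.3 ± 0.759 to 16.0 ± 0.730 CPM and was at 26.7 ± 0.638 CPM with DUXC (adjusted p = 0.117). The kinase JAK2 rose with both (log2 0.28 and 1.03).

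The list for IGF2 mRNA binding and imprinting had 6 of 10 genes higher and 1 lower with DUX4, and 6 higher and 2 lower with DUXC, with medians of 0.14 and 0.51. The 7 and 8 of 10 called were near the 64.8% and 82.5% of all genes. The 3 genes for IGF2 mRNA-binding proteins each had a pattern of its own. IGF2BP1 was at 1.40, 2.11 and 1.59 CPM with GFP, 5.71, 4.93 and 6.0 CPM with DUX4 and 1.70, 1.62 and 0.943 CPM with DUXC, high with DUX4 without overlap (log2 1.71, adjusted p = 2.90e-13 in edgeR). IGF2BP2 was at 139, 140 and 140 CPM with GFP, 151, 152 and 153 CPM with DUX4 and 84.2, 78.8 and 84.0 CPM with DUXC (log2 0.12 and -0.76). IGF2BP3 was at 22.7 ± 0.743 CPM with GFP and 24.2 ± 1.44 CPM with DUX4 (adjusted p = 0.101, with the threshold passed under DESeq2's size factors and library size alone) and rose to 52.1 ± 1.04 CPM with DUXC (log2 1.20). The growth inhibitor CDKN1C rose with DUXC and HMGA2 with DUX4 (log2 2.37 and 3.40).

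Among 10 genes of mannose 6-phosphate sorting, the route shared with IGF2R, 4 rose and 4 fell with DUX4 and 3 rose and 6 fell with DUXC. The 8 and 9 of 10 called stand beside 64.8% and 82.5% of all genes, and the medians were -0.01 and -0.10. SORT1 fell with both (log2 -1.01 and -0.83), and the protease CTSD, a cargo of IGF2R, fell from 173 ± 4.39 to 151 ± 5.84 and 82.9 ± 3.61 CPM. GNPTAB, which makes the mannose 6-phosphate tag, fell with DUX4 and rose with DUXC (log2 -0.22 and 0.69).

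**Figure D4:**
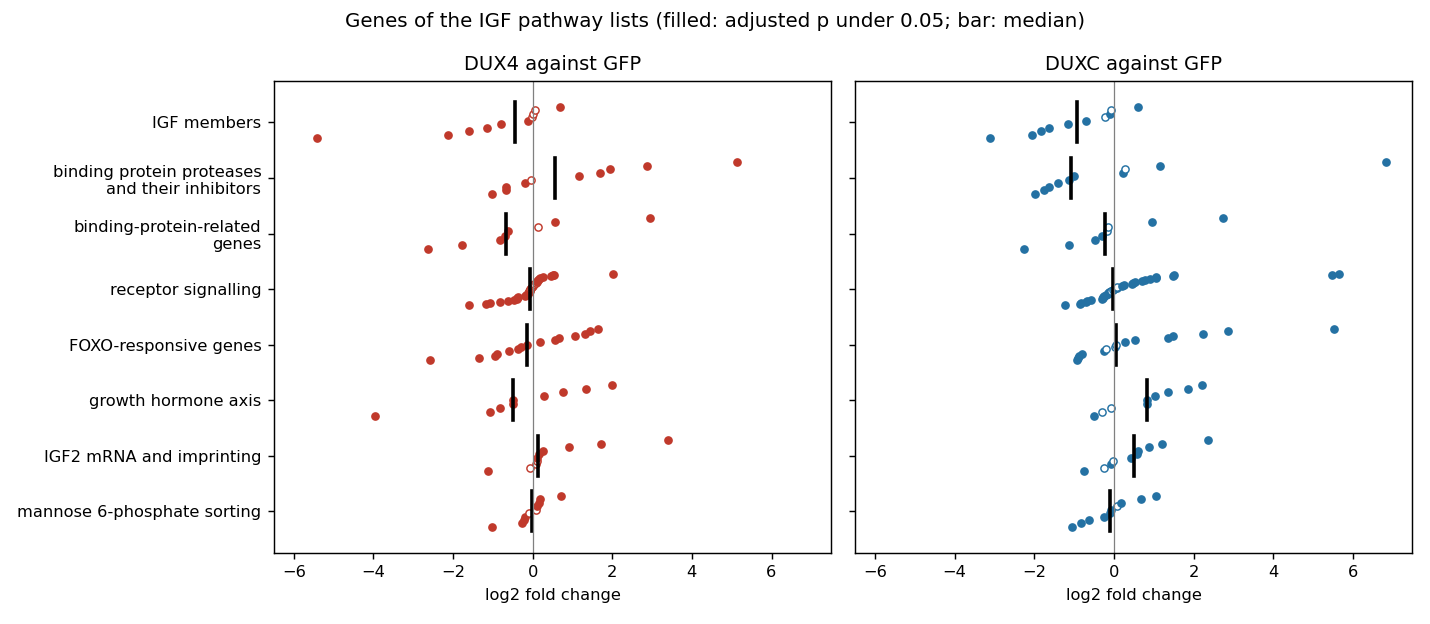
Fitted log2 fold changes (horizontal axes) against GFP of the 10 IGF genes and of the tested genes of 7 pathway lists, one point per gene, filled for an adjusted p under 0.05, with a bar at each list's median. The median of the IGF genes lies at -0.46 with DUX4 and -0.93 with DUXC, and the proteases lie at 0.56 and -1.07 (the outermost point there, PAPPA2, is a fitted value against no count).

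The genes most like each IGF gene were found by the root mean square difference in log2 CPM over the 9 libraries, after setting each gene's GFP mean to 0. This is a description over libraries that share their groups. Candidates were tested genes of at least 10 CPM in the highest group mean, without LOC symbols. Nearest to IGF1 among 9423 of them were the cartilage matrix gene COMP, elastin ELN and asporin ASPN, at differences of 0.810, 1.069 and 1.105. The difference is not scaled to the size of a change, and few genes fell as far as IGF1. ASPN went from 235 CPM with GFP to 17.6 with DUX4 and 50.5 with DUXC. The nearest to IGF2R, at 0.025, was SUPT3H, and to IGFBP6, at 0.033, MBD1. IGFBP4 was nearest to LMOD1, a smooth muscle actin nucleator, at 0.108, with 113, 26.2 and 26.4 CPM. IGFBP5 lay near the proteoglycan GPC1 and the collagen COL5A1 (0.074 and 0.079), IGFBP2 near ZBED2 and IGFBP3 near KCNK6. IGFBP7 was nearest to TET1, and the receptor adaptor GAB1 came next at 0.079. IGF2 was nearest to SULT1A3, and IGF1R to TTC28 at 0.031 and SYNM at 0.039.

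Markers of other cell types moved with the groups too. Of 10 fibroblast and matrix markers 8 were lower and 2 higher with DUX4, and 8 lower and 1 higher with DUXC, where 31.9% and 42.3% of all genes were lower. Their summed level was 69800 to 74400 CPM with GFP, 51900 to 56500 with DUX4 and 41100 to 41900 with DUXC. Of 9 smooth muscle and pericyte markers 6 were lower and 2 higher with DUX4, and 7 lower and 2 higher with DUXC, at the same background, with sums of 3090 to 3300, 1310 to 1420 and 794 to 817 CPM. Of 8 tested myogenic markers 4 were higher and 1 lower with DUX4, and 5 higher and 3 lower with DUXC. Over all genes 32.9% and 40.2% were higher, and 64.8% and 82.5% changed in either direction. The 12 myogenic markers in the table summed to 199 to 202, 309 to 319 and 215 to 219 CPM. Among them MET had the largest rise in CPM with DUX4, from 59.3 to 148. DES fell from 7.15 CPM to 2.1 with DUX4 and 1.07 with DUXC. Endothelial markers summed to at most 29.9 CPM, immune markers to 17.8 to 20 with DUXC and adipocyte to at most 11.9, and the leukocyte gene PTPRC had no count with GFP or DUX4. Of 3 tested endothelial markers 2 were higher with DUX4 and 3 with DUXC, beside 32.9% and 40.2% of all genes. The 3 hepatocyte markers, for the main source of circulating IGF1, summed to at most 2.94 CPM. The part of these markers in the changes of the IGF genes was not tested.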

How the data were processed

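Per the labels' protocols, 9 libraries were prepared from cell RNA with a TruSeq stranded mRNA kit. The deposited values are raw counts per gene, which the authors did not scale. Per the submitters' processing notes, CASAVA 1.9, Trim Galore and featureCounts were used with build Sscrofa11.1, and the file headers name Subread. The annotation release and strand setting were not given in the sources used here, so reads of overlapping genes cannot be told apart.

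Genes were filtered with filterByExpr, which removed 11383, and scaled with TMM (factors 0.960 to 1.06). Genes near 0 with GFP could pass this filter only through a transgene group, which favours higher calls among them. A model of all 9 libraries with group as its factor was fitted in edgeR 4.0.16 under R 4.3.3, with robust quasi-likelihood estimation and no block, and 3 contrasts were tested. Standard errors came from the fitted means and the quasi-dispersion. The pipeline was tested on simulated data in which few genes changed, with rises and falls in balance. In the libraries most genes were called, so that run does not speak for scaling or error rates here. Libraries of a group differed beyond sampling noise, most of all with DUX4. The chi-square per degree of freedom was 2.71 to 3.84 with GFP, 3.36 to 4.66 with DUXC and 7.29 to 19.3 with DUX4. Each gene's spread was estimated over all 3 groups together. Standard errors and p-values with DUX4 may therefore understate the spread of the DUX4 libraries. With 3 against 3 an exact permutation test cannot go below 0.1, so none was run.

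The IGF genes and lists were chosen with earlier results of these data known. Named are all 10 IGF genes, up to 5 genes per list by smallest p against GFP plus a fixed set (PAPPA2, as a gene without control counts, was added after its values were seen), and up to 3 genes of at least 10 CPM with the most similar pattern. Markers and the neighbours in the closing section are named besides. Of the fixed set, H19 was not analysed here. Positions are from RefSeq for Sscrofa11.1, matched by symbol for all 10 genes. Alternatives were other scaling, filters, DESeq2 1.42.0, limma-voom (limma 3.58.1), fits on 2 groups, a replicate block and leaving out each library.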

Additional observations from a re-analysis of the deposited data

How the results depend on the processing

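Over 17 alternatives the number of IGF genes called was 7 with DUX4 against GFP, 7 to 9 with DUXC against GFP and 9 to 10 between the transgenes. Over all genes the counts were 9574 to 10585, 11529 to 14888 and 11588 to 14499, and over the pathway lists 75 to 80, 74 to 84 and 79 to 88. The genes that changed call were IGFBP7 and IGF1R with DUXC and IGFBP4 between the transgenes, and the cause was not tested. IGF1R with DUXC passed without a filter on low counts and without DUXC replicate 1 or any DUX4 library. Signs turned for log2 values near 0. IGF2R with DUX4 was at 0.02 with DESeq2's size factors, library size alone and DESeq2, at 0.00 in a fit on the 2 groups, and from -0.02 to 0.01 when each library was left out in turn (0.01 without DUX4 replicate 1, 0.00 without GFP replicate 3). IGF1R with DUXC was at 0.01 with DESeq2's size factors and DESeq2 and at 0.06 with library size alone, where IGFBP7 was at 0.03, PLAUR at 0.02 and SYNM at 0.01. IGFBP4 between the transgenes ranged from -0.13 to 0.02 when each library was left out, the latter without DUX4 replicate 1. Library size alone moved the median of all genes with DUXC from -0.03 to 0.09, and testing without a filter on low counts, which adds genes, gave 0.17. Between the transgenes these settings moved it from -0.01 to -0.11 and -0.15. For 77 other genes, 3754 of 3888 values kept their call.

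With the replicate number as a block, the IGF genes called were 7, 8 and 9 and all genes called 10272, 13125 and 13094, so the block changed no call of an IGF gene. Residuals of same-numbered libraries correlated at -0.0258 to 0.0318, and those of differently numbered libraries at -0.0285 to 0.0302. No shared source was seen in this way, but a correlation over all genes cannot exclude one that moves few genes. Levels per exon length were not computed. IGF2 and IGFBP3 had at most 124 and 116 counts per library, which limits their precision.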

Other observations

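The IGF genes were also set beside the nearest tested genes on their chromosomes (RefSeq, Sscrofa11.1), a look taken after the values above were seen. Only the surroundings of IGF1, IGFBP2, IGFBP5, IGFBP4 and IGF1R are described. Before IGF1, LOC106510404 fell with both transgenes (log2 -3.12 and -1.87), while STAB2 rose with both from 0.0253 CPM (3.07 and 4.01). On the other side, with DUX4, LOC110260785 fell (-1.86) and PARPBP rose (1.05). Neither passed with DUXC (adjusted p = 0.467 and 0.197 in edgeR). IGFBP2 and IGFBP5 lie 10.8 kb apart, with no tested gene between them, and both fell with DUXC (log2 -1.62 and -1.83). The next tested gene beyond IGFBP5, TNS1, which encodes the focal adhesion protein tensin and lies 1070 kb away, fell with DUXC too, from 447 to 177 CPM (log2 -1.34, adjusted p = 6.02e-37 in edgeR). RPL37A, a ribosomal protein gene 117 kb before IGFBP2, was at 591 and 603 CPM (adjusted p = 0.381). IGFBP4 fell with both transgenes, while TOP2A, the mitotic topoisomerase gene 21.3 kb after it, rose from 33.3 CPM to 220 with DUX4 and 221 with DUXC (log2 2.73 in each). On its other side the chemokine receptor gene CCR7 rose from 0.269 to 7.29 CPM with DUXC (log2 4.74). With DUX4 it was at 0.0894 CPM (log2 -1.56, adjusted p = 0.00273 in edgeR), a fall between 2 low levels and so of limited precision.

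SYNM, which encodes the intermediate filament protein synemin, is the nearest tested gene after IGF1R, 165 kb away, and also has the pattern second most like IGF1R among 9423 genes. It went from 59.9 CPM with GFP to 34.1 with DUX4 (log2 -0.81, adjusted p = 7.88e-23 in edgeR) and 55.4 with DUXC, where IGF1R went from 118 to 67.9 and 112 CPM. TTC23, which comes after SYNM, was at 8.53, 8.01 and 9.77 CPM. The tested genes before IGF1R went the other way. FAM169B, nearer than SYNM at 86.4 kb, rose with both transgenes from 0.0416 CPM with GFP (log2 1.94 and 5.85). FMN1, 220 kb away, rose as well (log2 0.89 and 1.19). A shared local cause was not tested.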
